A study of Mus musculus with 59 samples.

Results

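The sites described here are the places in mouse liver chromatin where PPARδ and PPARα were both called by ChIP-seq and BCL6 was not. They were chosen by the positions of called peaks: a PPARδ peak of fed or fasted livers (peaks with centers within 200 bp counted once) that had a PPARα center within 200 bp in either state and no BCL6 center within 200 bp in either state. This gave 2333 of 8197 PPARδ sites (28.5%), and 33.5% of the 6959 sites that PPARδ shared with PPARα. The other 4626 shared sites also had BCL6. In the series as a whole, peaks of the 3 factors in fed and fasted C57BL/6 livers joined into 38462 sites.

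Livers came from male wild-type C57BL/6 mice, either fed ad libitum or fasted overnight. BCL6 was also mapped in fed male Bcl6 fl/fl mice of the same strain, which carry floxed Bcl6 alleles and no Cre, so that Bcl6 is intact. That list was not used to choose the sites. Each of the 7 peak lists combined 3 replicates and held from 2399 peaks (PPARδ, fasted) to 29085 (PPARα, fasted), with the fed PPARδ list at 7328 and the fed PPARα list at 21410. The lists give positions and no heights, so a site can be scored per feeding state as called or not and in no other way, no value has a spread over replicates, and the depth behind each list is unknown. Whole livers were used, and the cells in which a factor was bound cannot be told apart. Intervals are 95% Wilson or Newcombe intervals that cover counting error only. Tests are two-sided Fisher's exact tests over sites, which are not replicates of a condition.

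PPARα and PPARδ are nuclear receptors that bind DNA as heterodimers with RXR and are activated by fatty acids and their derivatives. PPARα is the main fasting regulator of fatty acid oxidation and ketone body formation in hepatocytes, and PPARδ is known for driving fatty acid oxidation in muscle and other tissues. BCL6 is a zinc finger repressor that recruits corepressor complexes with HDAC3. The classical PPAR-RXR element is a direct repeat of AGGTCA, with 1 free base between the copies (DR1), which HNF4 also reads.

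The sequences below show what lay at the centers of such sites near genes of lipid metabolism. They are the 8 sites with the fewest mismatches to AGGTCANAGGTCA among the sites within 100 kb of the start of transcription of the genes named from the lists further on. Ties were settled by how close the element lay to the site center. Capitals mark the best match to DR1, and 8 bases are shown on either side, from the reference genome (mm10, GRCm38). The first lay upstream of Acot12, a cytosolic acyl-CoA thioesterase, at chr13:91741403-91741431 (minus strand). The second was near Hilpda, a lipid droplet protein that inhibits lipolysis, at chr6:29271109-29271137 (plus strand). The third was upstream of Cpt1b, the muscle isoform of carnitine palmitoyltransferase 1, at chr15:89426089-89426117 (plus). The fourth was in the first exon of Slc25a20, the carnitine-acylcarnitine carrier of the inner mitochondrial membrane, at chr9:108662134-108662162 (plus). The fifth was upstream of Acot2, a mitochondrial thioesterase, at chr12:83987379-83987407 (plus). The sixth was in the first intron of Cat (catalase, which removes hydrogen peroxide from peroxisomes) at chr2:103484721-103484749 (minus). The seventh was upstream of Etfa, a subunit of the electron transfer flavoprotein, at chr9:55512300-55512328 (plus). The eighth had Plin4, a lipid droplet coat protein, as its nearest gene and lay at chr17:56099398-56099426 (plus).
Acot12: tgcttaggAGGTGAGAGGTCAgggtccta
Hilpda: tgaaaagtAGGGGAAAGGTCAcagcggaa
Cpt1b: ctgaatgtAGGGAAAAGGTCAccaggagt
Slc25a20: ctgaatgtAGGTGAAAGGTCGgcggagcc
Acot2: tggaatgtAGGTAAAGGGTCAcacagccc
Cat: tgccagctGGGACATAGGTCAcagcttaa
Etfa: ttgggagtAGGGCAAAGGTAAgggtgtgc
Plin4: cctgcaccAGGCCAGAGGGCAggggaaca

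The Acot12 element differed from DR1 at 1 of its 12 fixed bases and the other 7 at 2. As a contrast, a promoter site with a poor best match is shown, at Acaa1a (peroxisomal 3-ketoacyl-CoA thiolase, chr9:119341159-119341187, minus strand, 5 mismatches).
Acaa1a: tcctacggAAGCCAATCGTAAtgcgcact

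The question of the state in which each receptor was present was taken first. Because the choice used the union of states, and the fasted PPARδ list was much the shorter, the split is a description without a test. PPARδ was called in fed livers only at 1682 of the 2333 sites (72.1%, 70.2% to 73.9%), beside 70.7% of all PPARδ sites. It was called in both states at 456 (19.5%) and in fasted livers only at 195 (8.36%). At the sites that also had BCL6 these shares were 20.5% and 3.05%, and at PPARδ sites with neither other factor 10.6% and 45.8%. PPARα was called in both states at 1520 sites (65.2%, 63.2% to 67.1%), in fasted livers only at 662 (28.4%, 26.6% to 30.2%) and in fed livers only at 151 (6.47%). Over all PPARα sites, 35.9% were called in fasted livers only.

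The combinations differed from those at the sites that also had BCL6. The most frequent was PPARδ in fed livers only with PPARα in both states, at 1098 sites (47.1%) without BCL6 and 69.7% of those with it. PPARδ in fed livers only beside PPARα in fasted livers only made up 455 sites (19.5%) without BCL6 and 3.24% with it. PPARα was called in both states at 92.7% of the sites of all 3 factors and in fasted livers only at 3.76%. Taken by state, both receptors were called in fed livers at 1580 of the 2333 sites (67.7%) and in fasted livers at 629 (26.96%). At 470 sites (20.1%) they were never called in the same state. Of the 195 sites with PPARδ in the fasted state only, 104 (53.3%) had PPARα in that state only, against 455 of the 1682 sites with PPARδ in the fed state only (27.1%).

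**Figure D1:**
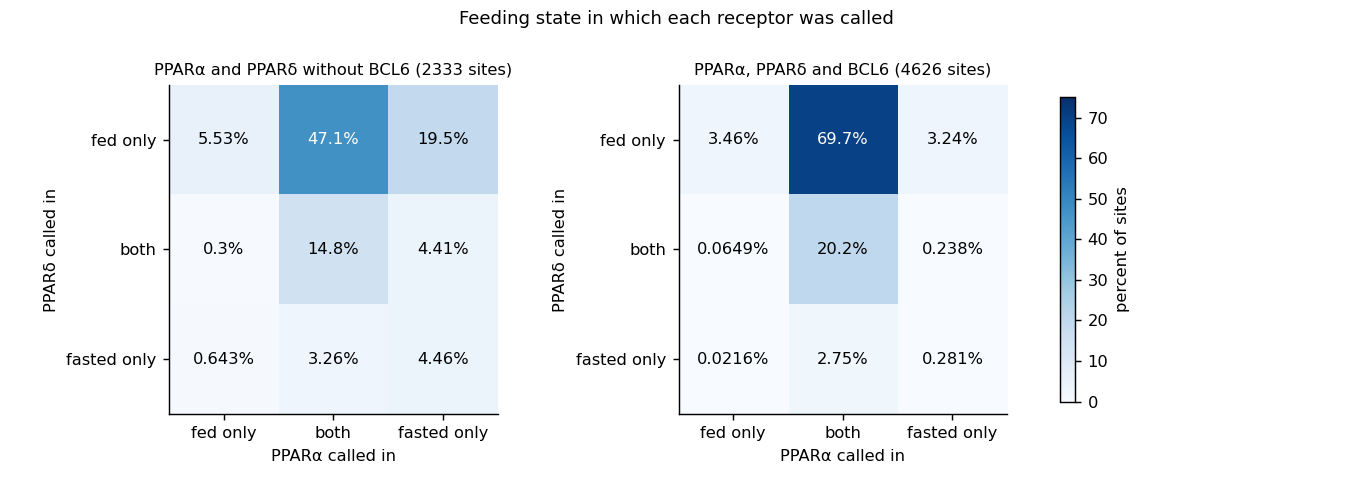
Percent of sites by the feeding state in which PPARδ (rows) and PPARα (columns) were called, for the 2333 sites without BCL6 (left) and the 4626 sites with BCL6 (right). The cell for PPARδ in fed livers only with PPARα in fasted livers only holds 19.5% on the left and 3.24% on the right.

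The rule allowed the centers of the receptors to lie at most 200 bp apart, and most lay closer. The median distance from PPARδ to the nearest PPARα center was 17 bp (quartiles 7 and 36 bp), and 61.7% of sites were closer than 25 bp. At the sites of all 3 factors the median was 13 bp (quartiles 5 and 29 bp). At the limit of the rule, 22 sites had PPARα at 150 to 200 bp, and 20 PPARδ sites with neither other factor had it at more than 200 and up to 250 bp. The nearest BCL6 center of the C57BL/6 lists lay at a median of 12191 bp (quartiles 3114 and 48973 bp), and 1078 sites (46.2%) had one within 10000 bp. The closest was at 203 bp, and 22 sites had BCL6 between 200 and 250 bp, whereas 52 sites of all 3 factors had it at 150 to 200 bp.

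The Bcl6 fl/fl livers gave an independent look at BCL6 on the same places. Of the 2333 sites, 879 (37.7%, 35.7% to 39.7%) had a BCL6 center of the fed Bcl6 fl/fl list within 200 bp, so the absence of BCL6 holds for the C57BL/6 lists and not for this one. The median distance at these 879 sites was 28 bp. The background was 40.1% of all sites of the 3 factors, BCL6 sites included. Among sites with PPARα alone the share was 15.4% (14.8% to 15.9% of 17420), 22.3 percentage points lower (20.3 to 24.4, Fisher's exact test, adjusted p = 3.27e-129). Among the 1143 sites with PPARδ alone it was 4.64% (3.56% to 6.02%), 33.0 points lower (30.7 to 35.3, adjusted p = 6.35e-115). The sites of all 3 factors, which the rule separated by BCL6 itself, had it at 85.6%. Among the 2333 sites the share with BCL6 in the Bcl6 fl/fl list varied with the state of both receptors. It was 49.9% where PPARα was called in both states (759 of 1520), 26.5% in fed livers only (40 of 151) and 12.1% in fasted livers only (80 of 662). By PPARδ it was 38.6% for both states (176 of 456), 40.1% for fed livers only (674 of 1682) and 14.9% for fasted livers only (29 of 195). At the 104 sites where both receptors were called in fasted livers only, 4 had BCL6 in the fed Bcl6 fl/fl livers (3.85%, 1.51% to 9.47%). The classes compared above also differed in state. Sites with a fasted call and no fed call made up 55.8% of PPARα alone and 45.8% of PPARδ alone. Among the 2333 sites such calls made up 28.4% for PPARα and 8.36% for PPARδ. The differences of 22.3 and 33.0 points were not adjusted for state, and how much of them the state accounts for was not tested.

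**Figure D2:**
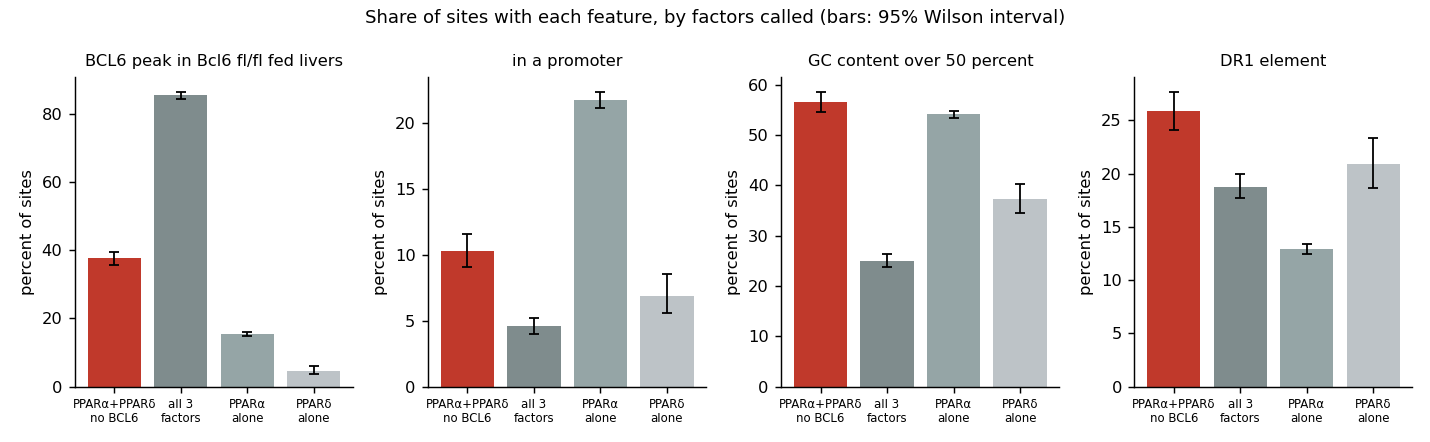
Percent of sites (bars, with 95% Wilson intervals) that had a BCL6 peak in fed Bcl6 fl/fl livers, lay in a promoter, had a GC content over 50%, or held a DR1 element in the 200 bp window, by the factors called in C57BL/6 livers. The sites of PPARα and PPARδ without BCL6 had the highest DR1 share of the 4 classes, 25.8%, and a promoter share of 10.3% between those of all 3 factors and PPARα alone.

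The position of the sites in the genome differed from that of the other classes. A promoter, the stretch between 1000 bp before and 100 bp after any RefSeq transcription start site (TSS), held 240 of the 2333 sites (10.3%, 9.12% to 11.6%), beside 12.8% of all sites of the 3 factors. The sites of all 3 factors were in promoters less often, at 4.58% (difference 5.70 points, 4.37 to 7.12, adjusted p = 1.56e-18), as were those of PPARδ alone, at 6.91% (3.38 points, 1.38 to 5.24, adjusted p = 0.00112). PPARα alone was in promoters more often, at 21.8% (difference -11.5 points, -12.8 to -10.1, adjusted p = 4.13e-43). Of the remaining sites without BCL6, 1159 lay in introns (49.7%), 829 between genes (35.5%) and 105 in exons (4.50%). The median distance to the nearest TSS of a protein-coding gene was 15359 bp, against 22904 bp for all 3 factors and 11458 bp for PPARα alone. Sites where PPARδ was called in both states were in promoters more often (68 of 456, 14.9%) than sites where it was called in a single state (172 of 1877, 9.16%, difference 5.75 points, 2.46 to 9.51, adjusted p = 0.00110). For PPARα the same comparison gave 10.1% against 10.6% (difference -0.45 points, -3.15 to 2.07, adjusted p = 0.775).

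The sites were spread over 20 chromosomes, from 0.164 per Mb on the X chromosome (28 sites) to 1.63 per Mb on chromosome 19 (100 sites), with none on Y. Neighboring sites lay a median of 335057 bp apart, and 203 of 2313 gaps (8.78%) were 10000 bp or less.

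Base composition also differed. In the 200 bp around the center the median GC content was 51.5% (quartiles 46 and 56%), against 46.5% at the sites of all 3 factors, 51% at PPARα alone and 48% at PPARδ alone. A GC content over 50% was found at 1320 sites (56.6%), where all sites of the 3 factors had 36.3%. This was 31.6 points more than at the sites of all 3 factors (29.2 to 33.9, adjusted p = 5.12e-146) and 19.2 points more than at PPARδ alone (15.7 to 22.6, adjusted p = 2.37e-26). Against PPARα alone the difference was 2.45 points (0.30 to 4.58, adjusted p = 0.0269), and it turned to -3.98 points (adjusted p = 0.00385) when every site with BCL6 in the Bcl6 fl/fl list was left out of both classes. Within the sites without BCL6, those with BCL6 in the Bcl6 fl/fl list were over 50% GC in 69.4% of cases and the others in 48.8% (difference 20.6 points, 16.5 to 24.5, adjusted p = 4.51e-22, a comparison chosen after the floxed counts were seen).

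The PPAR element was searched next, as AGGTCANAGGTCA with up to 2 mismatches on both strands of the 200 bp window. It was present at 603 of the 2333 sites (25.8%, 24.1% to 27.7%), beside 13.5% of all sites of the 3 factors. The share was 18.8% where BCL6 was also called (difference 7.08 points, 5.0 to 9.20, adjusted p = 1.21e-10), 12.9% at PPARα alone (12.9 points, 11.1 to 14.8, adjusted p = 1.02e-52) and 20.9% at PPARδ alone (4.94 points, 1.93 to 7.83, adjusted p = 0.00380). The difference from PPARδ alone was 1.60 points in windows of 50 bp (adjusted p = 0.283). The same letters read backwards, as a control for base composition, were found at 3.30% of the sites without BCL6, 2.94% of those of all 3 factors, 2.82% of PPARα alone and 3.50% of PPARδ alone. A full match was found at 14 sites, 1 mismatch at 143 and 2 at 446, and at another 846 sites the best match had 3.

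The element stood near the site center. Its middle lay within 25 bp of the center at 289 of the 603 sites (47.9%), with a median offset of 26 bp, and 296 elements (49.1%) were on the plus strand. Of equally good matches the one nearest to the center was taken. The share within 25 bp was 43.1% at all 3 factors, 43.7% at PPARα alone and 48.5% at PPARδ alone. The second AGGTCA copy was exact in 36.7% of elements and the first in 25.2%. In the other classes the second copy was exact in 31.8% (all 3 factors), 37.2% (PPARα alone) and 39.7% (PPARδ alone). The first was exact in 28.1%, 27.4% and 28.5%, in the same order. The free base was A in 58.0% (54.1% to 61.9%), where elements at the sites of all 3 factors had A in 45.6% (42.3% to 48.9%), those at PPARα alone in 45.9% (43.8% to 47.9%) and those at PPARδ alone in 50.6% (44.3% to 56.9%). A T stood just before the element in 37.5% (33.7% to 41.4%), as in the lines for Hilpda, Cpt1b, Slc25a20, Acot2, Cat and Etfa. The share was 29.6% (26.7% to 32.7%) at all 3 factors, 21.3% (19.7% to 23.0%) at PPARα alone and 49.8% (43.5% to 56.1%) at PPARδ alone. These 2 flanking features were read after the sequences were seen and were not tested.

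**Figure D3:**
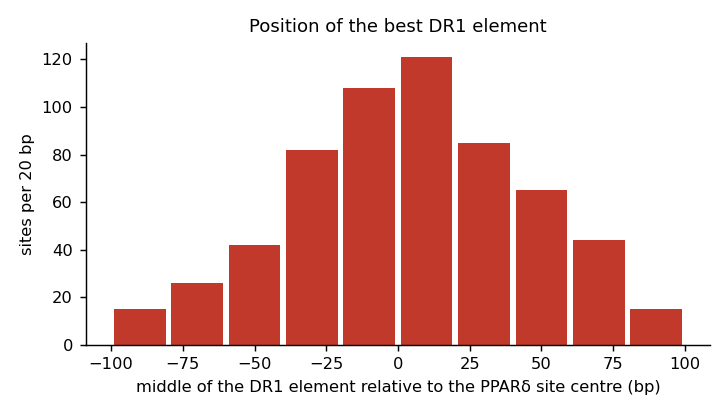
Number of sites per 20 bp by the distance in bp from the PPARδ site center to the middle of the best DR1 element, for the 603 sites without BCL6 that had one within the 200 bp window. The counts are highest in the bins on either side of the center, 108 and 121, and fall to 15 at both edges. The whole element had to lie in the window, which leaves fewer positions in the edge bins, and ties went to the match nearest to the center.

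Promoter sites and other sites were then taken separately. Outside promoters 550 of 2093 sites without BCL6 (26.3%) and 18.6% of the sites of all 3 factors held a DR1 (difference 7.66 points, 5.47 to 9.89, adjusted p = 9.13e-12). Within promoters the shares were 53 of 240 (22.1%) and 46 of 212 (21.7%), a difference of 0.39 points whose interval ran from -7.31 to 7.95 (adjusted p = 1). Promoter and other sites without BCL6 differed by -4.19 points (-9.35 to 1.76, adjusted p = 0.278). Sites where PPARδ was called in both states held a DR1 more often (139 of 456, 30.5%) than those where it was called in a single state (24.7%, difference 5.76 points, 1.25 to 10.5, adjusted p = 0.0288). PPARα in both states gave 26.2% against 25.2% (0.97 points, -2.80 to 4.62, adjusted p = 0.620), and the difference was 4.80 points (adjusted p = 0.0472) when sites with BCL6 in the Bcl6 fl/fl list were left out, an alternative chosen after seeing the data. Sites with BCL6 in the Bcl6 fl/fl list held a DR1 less often (193 of 879, 22.0%) than the others (410 of 1454, 28.2%, difference -6.24 points, -9.77 to -2.60, adjusted p = 0.00179), again a comparison chosen after the floxed counts were seen.

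Elements of other factors were searched in the same windows, with p-values adjusted over 57 comparisons of 19 elements with 3 classes. Against the sites of all 3 factors, 5 elements were more frequent, 7 less frequent and 7 did not pass the threshold. The elements of hepatocyte factors were among the less frequent. Their letters are mostly A and T, while GC content over 50% was 31.6 points more frequent at the sites without BCL6 than at all 3 factors. Read backwards, 8 elements passed against all 3 factors, and backwards shares are given here for DR1 alone. Whether base composition accounts for the differences of the other elements from all 3 factors was not tested. HNF6 (Onecut, ATTGAT) was at 246 sites (10.5%) against 22.8% (difference -12.3 points, -14.0 to -10.5, adjusted p = 1.87e-36), with 15.9% over all sites. C/EBP (TTGCNNAAT) was at 4.37% against 9.25% (adjusted p = 4.17e-13), with 6.76% over all sites. HNF1 (GTTAATNAT, up to 1 mismatch) was at 10.8% against 16.1% (adjusted p = 4.75e-09), with 16.3% over all sites. The forkhead element (TGTTTAC) was at 5.66% against 9.14% (adjusted p = 1.01e-06), with 7.37% over all sites. Against the sites of a single PPAR most of these differences did not pass the threshold. HNF6 was at 9.88% of PPARα alone (difference 0.66 points, -0.60 to 2.05, adjusted p = 0.415) and 8.84% of PPARδ alone (adjusted p = 0.177). C/EBP was at 4.72% of PPARα alone (adjusted p = 0.567) and 2.89% of PPARδ alone (adjusted p = 0.0701). The forkhead element was at 5.55% of PPARα alone (adjusted p = 0.839) and 4.20% of PPARδ alone (adjusted p = 0.123). HNF1 was at 12.6% of PPARα alone, which passed (difference -1.82 points, -3.11 to -0.41, adjusted p = 0.0253) but not in windows of 50 bp, and at 11.8% of PPARδ alone (adjusted p = 0.454). Nor did HNF1 pass against PPARα alone with sites with BCL6 in the Bcl6 fl/fl list left out (-0.47 points). That alternative was not planned for single elements.

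The BCL6 element itself (TTCCTAGAA, up to 1 mismatch) was at 150 sites (6.43%, 5.50% to 7.50%) against 10.1% where BCL6 was called (difference -3.67 points, -4.96 to -2.31, adjusted p = 1.04e-06), with 9.86% over all sites. The STAT element TTCNNNGAA, which an exact BCL6 element also matches, was at 6.77% against 11.4% (adjusted p = 3.35e-09), with 9.73% over all sites. The rule separated these classes by BCL6 itself, so lower shares of both elements can follow from the choice of sites. Where the Bcl6 fl/fl list had a peak the BCL6 element was at 57 of 879 sites (6.48%), and elsewhere at 93 of 1454 (6.40%), a difference of 0.09 points with an interval from -1.91 to 2.24 (adjusted p = 0.931). Against PPARα alone the difference was 1.30 points (0.32 to 2.42, adjusted p = 0.0234), and this did not pass the threshold in windows of 50 or 100 bp or with repeats masked (adjusted p = 0.0911). Against PPARδ alone the difference was -2.14 points for the BCL6 element (-4.14 to -0.31, adjusted p = 0.0456) and -2.33 points for the STAT element (-4.37 to -0.44, adjusted p = 0.0326). Neither passed in windows of 50 bp, nor did STAT in windows of 100 bp. The BCL6 element passed against neither single PPAR with sites with BCL6 in the Bcl6 fl/fl list left out. Each adjusted p by Fisher's exact test was 0.101.

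Some elements that are frequent in GC-rich promoters were more frequent than at all 3 factors, though less frequent than at PPARα alone. The SP1 element (GGGCGGG) was at 130 sites (5.57%), against 1.28% at all 3 factors (adjusted p = 1.85e-22) and 11.9% at PPARα alone (adjusted p = 8.44e-22), with 6.33% over all sites. The ETS element (CCGGAAG) was at 2.10%, against 0.519% (adjusted p = 2.48e-08) and 7.30% (adjusted p = 1.80e-25), with 3.82% over all sites. NRF1 (GCGCATGCG, up to 1 mismatch) was at 1.29%, against 0.324% (adjusted p = 2.87e-05) and 4.24% (adjusted p = 5.85e-14), with 2.28% over all sites. The E-box CACGTG, read by USF, MYC and clock factors, was at 3.81%, against 2.42% (adjusted p = 0.00380) and 6.29% (adjusted p = 2.98e-06), with 4.77% over all sites. In windows of 50 bp the ETS, NRF1 and E-box differences from all 3 factors did not pass the threshold, nor did that of NRF1 in windows of 100 bp. The other spacings of AGGTCA share letters with DR1. DR2 (AGGTCANNAGGTCA, up to 2 mismatches) was at 8.40% of sites against 8.21% at all 3 factors (difference 0.19 points, -1.16 to 1.60, adjusted p = 0.826) and 5.49% at PPARα alone (2.91 points, 1.79 to 4.15, adjusted p = 4.50e-07), with 5.94% over all sites. DR4 (5.70% against 4.24%), DR5 (5.66% against 4.07%) and IR1 (3.26% against 2.28%) were also more frequent than at PPARα alone. Over all sites they were at 4.67%, 4.44% and 2.57%. The adjusted p by Fisher's exact test was 0.00472, 0.00171 and 0.0149. None of them passed against all 3 factors. In windows of 50 bp DR4 and DR5 did not pass against PPARα alone, nor did DR4 and IR1 in windows of 100 bp. With sites with BCL6 in the Bcl6 fl/fl list left out, DR4, DR5 and IR1 did not pass against PPARα alone. The adjusted p by Fisher's exact test was then 0.117, 0.277 and 0.247.

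**Figure D4:**
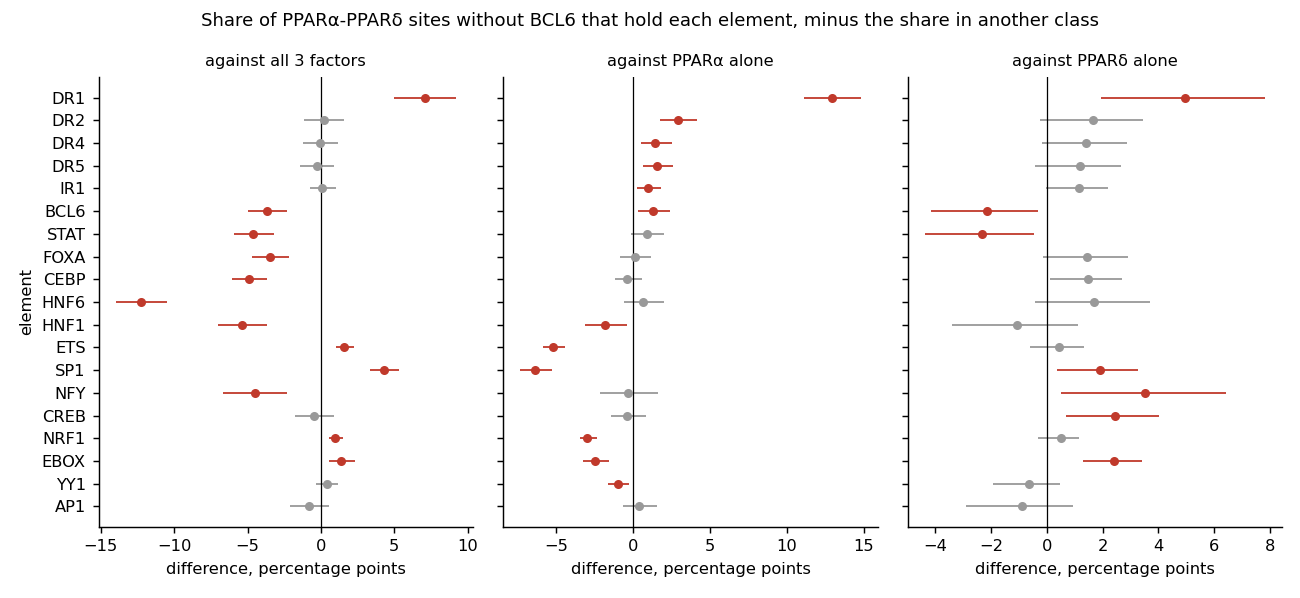
Difference in percentage points between the share of the 2333 sites without BCL6 that held each of 19 elements and the share in the class named above each panel (points, with 95% Newcombe intervals, and red where the adjusted p was under 0.05). DR1 lies to the right of 0 in all 3 panels, while HNF6 lies 12.3 points to the left against the sites of all 3 factors.

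To place the sites beside genes, each was assigned by the closest TSS of a protein-coding gene, which does not say that the gene is regulated from there. The 2333 sites fell to 1874 genes, or 8.61% of 21774 protein-coding genes, and 1523 of these (81.3%) had a single site. Of the 1874 genes, 754 (40.2%) also had a site of all 3 factors, where 12.6% of all protein-coding genes had one, and 1313 (70.1%) had a BCL6 site of any kind, where 30.1% of all protein-coding genes had one. The remaining 561 (29.9%) had no BCL6 site. The 195 genes of 14 lists of hepatic fuel metabolism and its regulators included 85 (43.6%) with at least 1 site without BCL6. In the same lists 112 genes (57.4%) had a site of all 3 factors and 152 (77.9%) a BCL6 site. The lists were drawn up with earlier results of these data known, and no test was made on them.

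Genes that carry acyl groups into mitochondria and oxidize them had such sites, several of them at the TSS. Of 8 genes of the carnitine shuttle 6 had a site, and of 16 genes of mitochondrial β-oxidation 8 had one. At Slc25a20 the site lay at +28 bp in the 5′ UTR (chr9:108662064-108662270) and both receptors were called in both states, with no BCL6 in the Bcl6 fl/fl list. A second site lay 649 bp downstream of the TSS in intron 1, and it did have BCL6 there. At Cpt1b the site was 253 bp upstream (chr15:89426019-89426211), with PPARδ in fed livers only. Crat (carnitine acetyltransferase) had a site at 305 bp, in the 5′ UTR. Etfa and Etfb encode both subunits of the flavoprotein that takes electrons from acyl-CoA dehydrogenases. The Etfa site (chr9:55512226-55512445) was 89 bp upstream and the Etfb site (chr7:43443835-43444039) 134 bp upstream, and at each both receptors were called in both states. Acaa2, the last enzyme of the mitochondrial spiral, had a site 109 bp upstream with the same calls. The sites given for Crat, Etfb and Acaa2 had BCL6 in the Bcl6 fl/fl list, and those for Cpt1b and Etfa did not.

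Peroxisomal oxidation had 9 of 16 genes with a site. The Acaa1a promoter site (chr9:119341085-119341294) was 102 bp upstream of the TSS, and a second was in intron 3, 1615 bp downstream. Both were called in both states for both receptors, and both had BCL6 in the Bcl6 fl/fl list. Decr2 (peroxisomal dienoyl-CoA reductase) and Acot8 (peroxisomal thioesterase) had intron 1 sites 780 and 1040 bp downstream of the TSS, with PPARδ in fed livers only. Of 12 thioesterase genes 4 had a site, at 116 bp upstream for Acot12, 450 bp for Acot2 and 999 bp for Acot1. The Decr2, Acot12 and Acot1 sites had BCL6 in the Bcl6 fl/fl list, and the Acot8 and Acot2 sites did not. The authors kept uniquely placed reads, so that near-identical copies in the Acot cluster can lack peaks. Of the 9 genes of ω-oxidation, which include Cyp4a hydroxylases, none had a site without BCL6, whereas 6 had a site of all 3 factors.

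Of 14 genes of uptake and activation 6 had a site. The Acsl1 (long-chain acyl-CoA synthetase) site lay at 24 bp downstream of a TSS, that of Slc27a1 (fatty acid transport protein 1) 395 bp upstream, and that of Cd36 (fatty acid translocase) 105 bp downstream. Cd36 was the one named gene whose site (chr5:17835689-17835893) was called in fasted livers only for both receptors. Of 16 genes of lipid droplets and lipolysis 8 had a site, among them Plin5, a droplet protein of oxidative tissues, at 99 bp upstream (chr17:56117293-56117497). Both receptors were called in both states there and BCL6 was in the Bcl6 fl/fl list. The Hilpda site of the sequences above was 1369 bp upstream (chr6:29271015-29271229), with both receptors in both states. Plin4 had a site in intron 3, 942 bp from the TSS, and the DR1 site shown above, 10399 bp from it.

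Genes of fat synthesis and glucose use, many of which are more active in the fed state, had sites too. Of 15 genes of lipogenesis and desaturation 9 had a site. Me1 (malic enzyme, a source of NADPH) had one 144 bp upstream with both receptors in both states (chr9:86695935-86696175). Acly (ATP citrate lyase) had one 982 bp upstream where both receptors were called in fed livers only. Fasn (fatty acid synthase) had sites 6332 and 27682 bp upstream. Of 18 genes of glucose and fuel choice 10 had a site. The Pdk4 site was 237 bp upstream (chr6:5496374-5496650), where both receptors were called in both states. Pdk4 inhibits pyruvate dehydrogenase, and the gene also had 5 sites of all 3 factors. Gpd1 (glycerol 3-phosphate dehydrogenase) had one 1575 bp upstream. The Me1, Acly, Pdk4 and Gpd1 sites had BCL6 in the Bcl6 fl/fl list, and the Fasn sites did not.

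Ketone body genes had 2 of 9, and both sites were far from the TSS, at 26488 bp for Slc16a1 (monocarboxylate transporter 1) and 65411 bp for Bdh1 (3-hydroxybutyrate dehydrogenase). Among secreted factors and lipoproteins 5 of 14 genes had a site. Creb3l3, a liver transcription factor induced by fasting, had one 266 bp upstream of its nearest TSS (chr10:81092691-81093017), with both receptors in both states, a DR1 with 2 mismatches and no BCL6 peak in the Bcl6 fl/fl list. Mttp (microsomal triglyceride transfer protein) had a site 284 bp from a TSS. In the list of uncoupling and antioxidant genes 5 of 12 had a site. Cat and Retsat (retinol saturase) had sites 400 and 403 bp downstream of the TSS, and Tmem135, a peroxisomal membrane protein, one at 1666 bp.

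Of 22 nuclear receptors and coregulators 7 had a site. Ppara itself had 3, at 3521, 14873 and 32184 bp upstream of its nearest TSS, where PPARδ was called in fed livers only, beside 4 sites of all 3 factors. Nr1d1 (the clock repressor REV-ERBα) had one 7970 bp upstream, 419 bp from a BCL6 center. Of 16 clock genes 7 had a site, with Npas2 (a partner of BMAL1) 1359 bp upstream and Hlf (a PAR bZIP factor) with 3 sites in intron 2. Of the 38 genes that the naming rule took from the lists, the nearest site was within 2000 bp of the TSS in 30. The naming rule took the nearest, so this is a description. At 17 of the 38 both receptors were called in both states, and 19 had BCL6 in the Bcl6 fl/fl list.

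**Figure D5:**
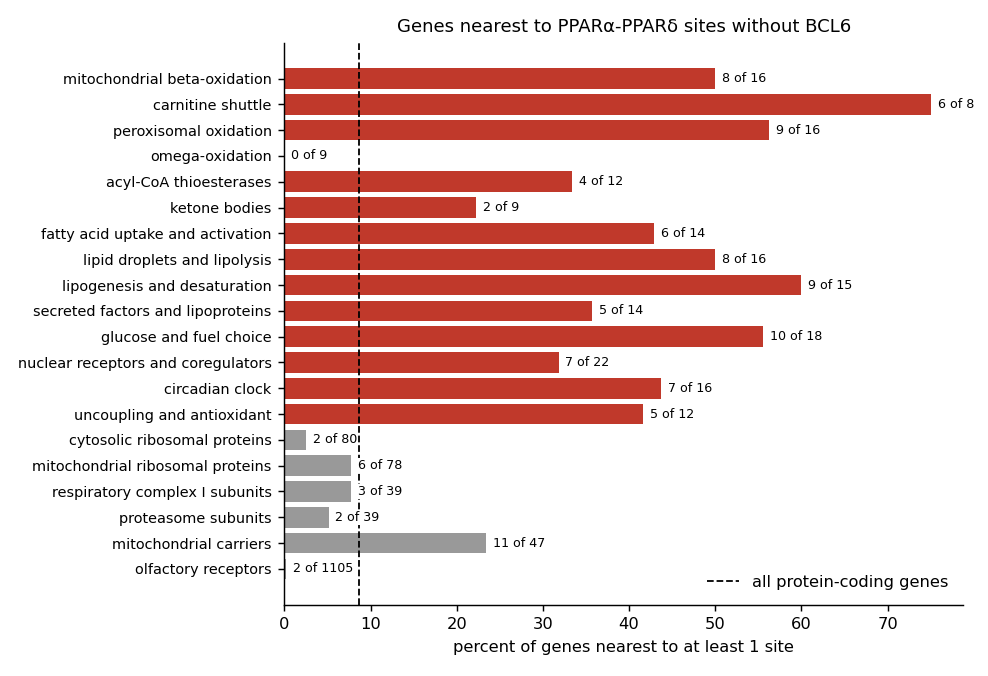
Percent of the genes of each list (red) or gene family (grey) that were the nearest gene of at least 1 site without BCL6, with the counts beside the bars and the 8.61% of all protein-coding genes as a dashed line. The carnitine shuttle stands at 6 of 8 and ω-oxidation at 0 of 9.

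In comparison families, 2 of 80 cytosolic ribosomal protein genes (2.50%), 6 of 78 mitochondrial ribosomal protein genes (7.69%), 3 of 39 complex I subunits, 2 of 39 proteasome subunits and 2 of 1105 olfactory receptors had a site, while 11 of 47 mitochondrial carriers (23.4%) did. Of the 85 list genes with a site without BCL6, 18 were the nearest gene of no BCL6 site in the C57BL/6 lists (21.2%), against 29.9% of all genes with such a site. At 8 of the 18 a site had BCL6 in the Bcl6 fl/fl list. These 18 genes, picked out after their values were seen, included the acyl-CoA dehydrogenases Acadl, Acadvl and Acads, Etfb, Etfdh, Cpt1b, Slc25a20, Acaa1a, the perilipins Plin1, Plin4 and Plin5, Pnpla2 (adipose triglyceride lipase), Creb3l3 and Ucp3. Of these, the sites nearest to the TSS were 463 bp away for Acadl, 416 bp for Acadvl and 165 bp for Acads.

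The 4 genes with 6 sites each were Cebpa, Gse1, Rreb1 and Zfp36l2, and Apoa1 came first in the alphabet among 6 genes with 5. Cebpa encodes C/EBPα, a central hepatocyte transcription factor, and Rreb1 a zinc finger factor. All 6 Cebpa sites lay between genes, with the first 2571 bp before the TSS and the last 30852 bp after it. PPARδ was called in fed livers only at each of them, and the gene had no site of all 3 factors. Zfp36l2, an RNA-binding protein that promotes mRNA decay, likewise had no site of all 3 factors and had its sites between 689 bp and 161363 bp from the TSS. Rreb1 had 7 sites of all 3 factors besides. At Apoa1, the main protein of high-density lipoprotein, the 5 sites lay 4293 to 101031 bp upstream and PPARδ was called in fed livers only at all 5. At Cebpa, Gse1, Rreb1, Zfp36l2 and Apoa1 alike, some of the sites but not all had BCL6 in the Bcl6 fl/fl list. Some of the Apoa1 and Zfp36l2 sites lay in introns of other genes, and the assignment by distance was not tested.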

How the data were processed

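ChIP-seq peak lists of PPARα, PPARδ and BCL6 in fed and fasted C57BL/6 livers and of BCL6 in fed Bcl6 fl/fl livers were used, 3 replicates per list. Per the labels and the study's methods, the authors placed reads on mm10 with Bowtie, kept unique placements and a single read per start position, found peaks over input with HOMER after pooling the replicates, and kept those enriched by DESeq2. The deposited values are peak positions in bp, with no count, height or p-value, so depth is unknown. Peak widths were 192 to 222 bp.

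Peaks of a factor were joined by single linkage of centers within 200 bp. The sites and gene lists were chosen with earlier results of these data known. Sequence and RefSeq annotation were those of GRCm38. Genes were assigned by the nearest protein-coding TSS within 1 Mb. Up to 3 genes per list with the site nearest to their TSS and the 5 genes with the most sites were named. Sequences were the 8 sites of the genes named from the lists, within 100 kb of a TSS, with the fewest DR1 mismatches (ties by distance of the element from the center), and the 2 promoter sites with the most. Some of these genes and 1 of these sequences are not reported here.

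Windows of 200 bp were scanned on both strands. The 19 elements included DR4 and DR5 (AGGTCA copies with 4 or 5 free bases, up to 2 mismatches), IR1 (TGACCTNAGGTCA, up to 2), NF-Y (CCAAT), CREB (TGACGTCA, up to 1), YY1 (AAGATGGCG, up to 1) and AP-1 (TGANTCA). Matches of different elements can overlap. Counts were compared by Fisher's exact test with Benjamini-Hochberg adjustment within each family of comparisons. The functions were tested on simulated sites and windows. The alternatives were the distance that counts as shared, the joining, the BCL6 list, promoter and motif windows, mismatches, repeats and the reach to a TSS. Samples with other antibodies or genotypes were not used here. Tools were SciPy 1.17.1, NumPy 2.4.6 and Matplotlib 3.10.9 under Python 3.11.15.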

Additional observations from a re-analysis of the deposited data

How the results depend on the processing

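No paired analysis was possible because each list pools its replicates. Of 129 recomputed values of the comparisons, 114 kept their direction and their side of the threshold, or moved by less than the margin set for counts. The number of sites fell to 1454 when sites with BCL6 in the Bcl6 fl/fl list were also left out, and the share with PPARα in fed livers only was 7.85% at a distance of 100 bp. With those sites left out, the GC difference from PPARα alone was -5.30 points, and -3.98 points when they were left out of both classes (an alternative chosen after seeing the data). In GC windows of 50 bp it was 0.222 points. With sites with BCL6 in the Bcl6 fl/fl list left out, DR1 by PPARα in both states differed by 4.80 points (adjusted p = 0.0472, Fisher's exact test, chosen after seeing the data). In motif windows of 50 bp the DR1 difference from PPARδ alone was 1.60 points, NF-Y against PPARδ alone was -0.0929 points, and the elements past the threshold numbered 7 against PPARα alone and 0 against PPARδ alone, with 3 against PPARδ alone in windows of 100 bp. The cause was not tested. Read backwards, 8 elements passed against all 3 factors, where 12 passed as written, 4 passed against PPARα alone and 4 against PPARδ alone, and DR1 differed by 0.361 points from all 3 factors, 0.476 from PPARα alone and -0.199 from PPARδ alone. Of 324 values of the other single elements, 276 stayed on their side, 43 no longer passed, 4 newly passed and 1 changed direction. Called peaks without heights or depth limit every value: a missing call is not absence of binding.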
